A study of Mus musculus with 4 samples.

Results

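Arteries owe much of their texture to proteoglycans, to the polysaccharide hyaluronan, and to secreted proteins that tune how cells hold on to the matrix. The transcripts of 35 genes of these families were followed in mouse aortic grafts. The genes were chosen by symbol, and all 35 were found among the 54752 genes of the deposited count table. Of these, 30 passed a filter on low counts and were tested. RNA of abdominal aortic grafts, freed of ribosomal RNA, was sequenced 4 weeks after transplantation. The ALLO grafts, which the series title calls allografts undergoing chronic rejection, were compared with ISO grafts, whose name is not explained. Each group held 2 libraries (n = 2 throughout), all of whole graft tissue. The labels state no strain, genotype, age, sex or drug treatment for either group, and do not say how many animals stood behind its libraries. The p-values therefore speak of the spread among these 4 samples alone, and part of it may be technical. Libraries are called by their labels, ISO_rep1, ISO_rep2, ALLO_rep1 and ALLO_rep2, and paired values are always given in that order.

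Library totals ran from 17532344 to 20194854 counts. ISO_rep1 stood apart in sex-linked transcripts, with 10647 counts of Xist against at most 8 in the others and 0 of the Y-linked Ddx3y against at least 2105. Levels are given in CPM, which are counts scaled for library size and composition. The labelled tissue was checked with marker lists. The 10 smooth muscle markers summed to 31355 and 31801 CPM in ISO and to 1493 and 2823 CPM in ALLO, and 9 of them were lower in ALLO. The 12 fibroblast markers summed to 9005 and 13298 CPM in ISO and 18449 and 24135 CPM in ALLO (3 lower and 9 not passed by edgeR's test, with 4 higher by that of DESeq2). Of these sums, Col1a1, Col1a2 and Col3a1, which did not pass, made up 7036 and 11653 CPM in ISO and 17159.7 and 23127 CPM in ALLO, while the other 9 markers summed to 1969 and 1645 CPM in ISO and 1289 and 1008 CPM in ALLO. The 12 leukocyte markers summed to 265 and 78.8 CPM in ISO and 3256 and 3062 CPM in ALLO, with 10 of them higher. The 10 endothelial markers summed to 1799 and 1763 CPM in ISO and 820.0 and 968 CPM in ALLO, with 4 lower and 1 higher (Emcn, whose call was lost when any 1 library was left out). Beside these marker counts, 18.4% of all genes tested were higher in ALLO and 14.8% lower. In whole tissue, fewer cells of a type and less RNA per cell cannot be told apart.

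The genes fall into families with distinct tasks. Versican, aggrecan, brevican and neurocan are large proteoglycans that carry chondroitin sulphate chains and bind hyaluronan, and link proteins lock that bond. Hyaluronan is spun out through the plasma membrane by synthases and is gripped by the receptor CD44. Small leucine-rich proteoglycans coat collagen fibrils and govern how they are spaced and thickened. Matricellular proteins, among them thrombospondins, tenascins, periostin and the testicans, shape adhesion and growth factor activity more than they bear load. In injured arteries, versican and hyaluronan are known as the provisional matrix of the thickening intima, while biglycan and decorin are abundant in normal media and adventitia.

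Asporin, osteomodulin and osteoglycin are encoded side by side on the forward strand of chromosome 13, with gaps of 14.9 and 15.2 kilobases and no coding gene between them. Their upstream sequences are shown because 2 of these neighbours fell in ALLO grafts and the call was not made for the third. The upstream sequence of Thbs2 is shown as well, since this gene had the smallest adjusted p among the members. Each run holds the 250 bases before the RefSeq start (GRCm38.p6), read 5′ to 3′ on the gene's strand. They lie at chr13:49544193-49544442 (forward strand), chr13:49582212-49582461 (forward), chr13:49607765-49608014 (forward) and chr17:14694263-14694512 (reverse strand).
Aspn: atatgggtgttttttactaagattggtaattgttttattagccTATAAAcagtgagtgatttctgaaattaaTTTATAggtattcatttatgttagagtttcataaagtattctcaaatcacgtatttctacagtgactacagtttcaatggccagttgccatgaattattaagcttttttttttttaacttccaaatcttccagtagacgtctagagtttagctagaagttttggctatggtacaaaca
Omd: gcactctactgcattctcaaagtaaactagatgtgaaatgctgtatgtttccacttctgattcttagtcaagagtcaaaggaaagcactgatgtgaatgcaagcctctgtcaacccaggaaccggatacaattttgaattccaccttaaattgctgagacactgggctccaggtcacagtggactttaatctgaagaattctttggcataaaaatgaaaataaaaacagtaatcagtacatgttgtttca
Ogn: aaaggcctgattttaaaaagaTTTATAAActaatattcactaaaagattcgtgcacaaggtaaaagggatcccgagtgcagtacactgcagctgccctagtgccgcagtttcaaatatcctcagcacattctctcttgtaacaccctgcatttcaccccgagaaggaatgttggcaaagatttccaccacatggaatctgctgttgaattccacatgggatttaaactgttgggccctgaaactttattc
Thbs2: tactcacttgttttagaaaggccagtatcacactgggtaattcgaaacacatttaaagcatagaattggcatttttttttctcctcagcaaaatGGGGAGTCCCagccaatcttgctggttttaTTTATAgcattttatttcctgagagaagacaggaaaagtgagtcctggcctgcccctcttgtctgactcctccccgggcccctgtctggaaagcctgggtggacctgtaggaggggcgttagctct
Capitals mark matches, on either strand, to any of 4 motifs. These were the TATA box, spelled TATAAA, the CArG box of serum response factor, the NF-kB site and the AP-1 site, spelled TGANTCA.

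The Aspn window held TATAAA matches whose leftmost bases lay 207 and 178 bases before the start, and Ogn held a pair that overlapped at 229 and 227 bases before it. The Omd window held no match to any of the 4 motifs. In Thbs2 an NF-kB match began 156 bases and a TATAAA match 126 bases before the start. Windows reaching to 50 bases past the start were at hand for 27 of the 35 genes. TATAAA was found in 7 of them, AP-1 in 2, NF-kB in 2 and the CArG box in 0. These 27 genes had 32 windows, and a gene was counted if any of its windows held a match. The shares that follow are per window and so are not the same measure. Among 32851 RefSeq windows of that length the shares were 13.6% for TATAAA, 7.81% for AP-1, 8.46% for NF-kB and 1.63% for the CArG box. Postn had a TATAAA match 26 bases before 1 of its annotated starts. These are matches of letters and say nothing of which factors bind.

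By the quasi-likelihood test of edgeR, with a Benjamini-Hochberg adjusted p under 0.05 over all 16498 genes tested, 4 of the 30 were higher and 10 lower in ALLO grafts, and 16 did not pass. In all, 46.7% of the tested members passed, beside 33.1% of all genes tested. The higher members made up 13.3%, beside 18.4% of all genes, and the lower members 33.3%, beside 14.8%. The median log2 change of the members was -0.24, beside 0.03 over all genes. Without ISO_rep1 it was 0.31, but 32 members instead of 30 were then tested, so these medians are not of the same genes. Higher were the hyaluronan receptor Cd44 and the thrombospondins Thbs1, Thbs2 and Thbs4. Lower were Vcan, Hapln1, Has3, Ogn, Omd, Prelp, Thbs3, Postn, Tnc and Spock2. The remaining 5, Bcan, Hapln3, Kera, Spock1 and Spock3, had too few counts to be tested. For 10 of the 14 that passed the call was made under each of the 14 other settings tried. Vcan, Has3, Tnc and Spock2 lost it under some of them.

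**Figure D1:**
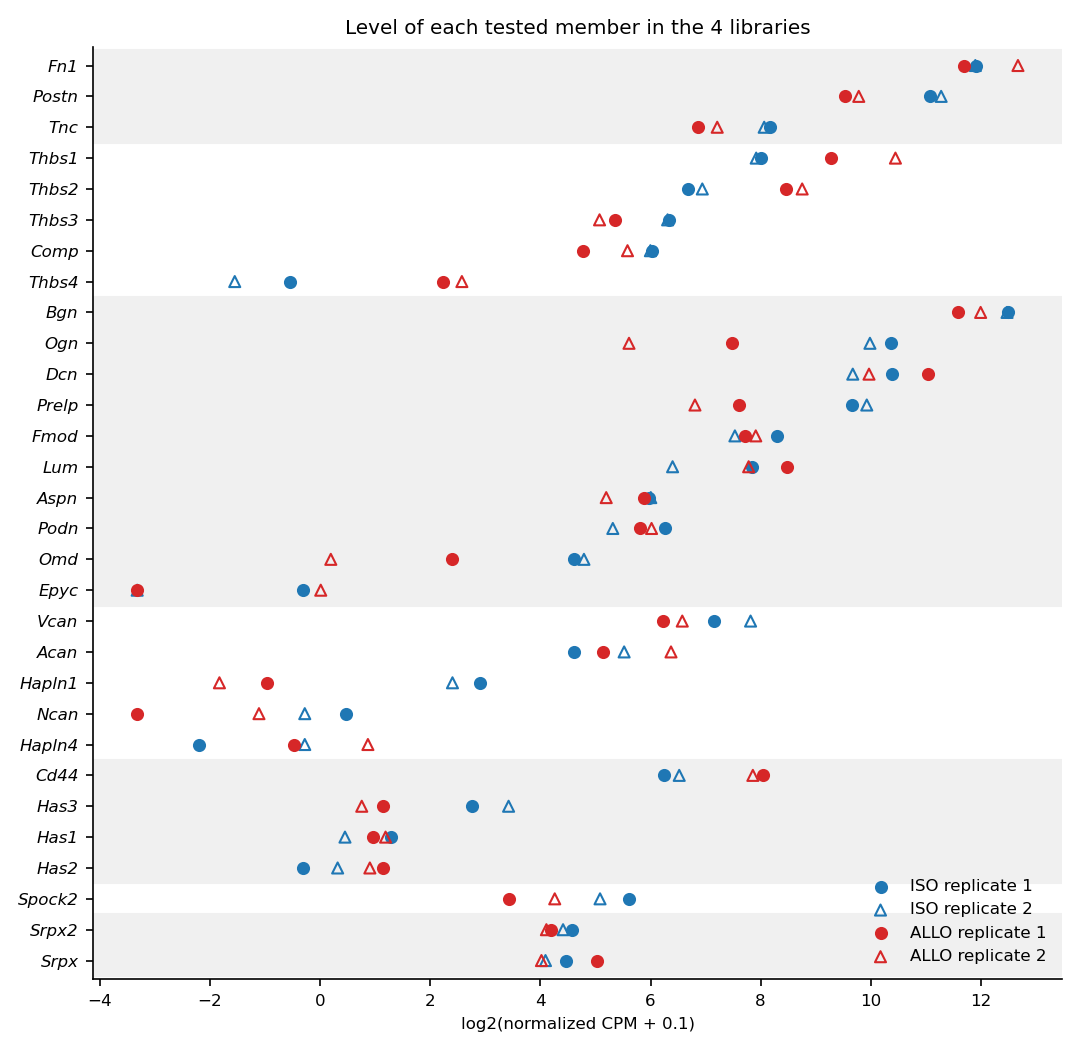
Level of the 30 tested members in each library, as log2(CPM + 0.1), ordered by family with shaded bands separating families (blue, ISO; red, ALLO; circles, replicate 1; triangles, replicate 2). The red points of Ogn, Omd, Prelp and Hapln1 lie left of the blue ones and those of Cd44, Thbs1, Thbs2 and Thbs4 right of them, while those of Fmod and Podn lie between them.

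Among the large proteoglycans and their link proteins, 2 of 5 tested genes fell (40%, beside 14.8% of all genes tested) and 3 did not pass. Versican, the main large proteoglycan of the vessel wall, had 143 and 225 CPM in the ISO libraries and 74.4 and 95.3 CPM in the ALLO libraries. Both ALLO values lay below both ISO values, a 2.17-fold difference (log2 -1.12 ± 0.30 SE, adjusted p = 0.0410). The call for Vcan (ENSMUSG00000021614.16, chromosome 13, 89655312 to 89742509, mm10) was lost at adjusted p = 0.184 without ISO_rep2, 0.146 without ALLO_rep1 and 0.0710 without ALLO_rep2, and at 0.0765 with scaling by library size alone. Reads of its splice forms, which differ in the domain that carries the chains, were summed in the gene count. Hapln1 encodes the link protein that ties such proteoglycans to hyaluronan. It had 127 and 86 counts in ISO and 8 and 4 in ALLO, or 7.43 and 5.19 CPM in ISO and 0.411 and 0.182 CPM in ALLO. The fall was 21.1-fold (log2 -4.40 ± 0.61, adjusted p = 0.00802), and 32.7-fold without ALLO_rep1. Hapln1 (chromosome 13, 89539796 to 89611652) and Vcan are neighbours, 43.7 kilobases apart on opposite strands.

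Aggrecan, the bulk proteoglycan of cartilage, had a higher mean in ALLO, unlike versican, but did not pass. Acan had 24.3 and 45.8 CPM in the ISO libraries and 35.2 and 82.7 CPM in the ALLO libraries, so the groups overlapped (log2 0.75 ± 0.50, adjusted p = 0.306), and without ALLO_rep2 the log2 change was 0.01. Per kilobase of transcript, the scale used to compare genes, the mean level of Acan was 4.69 CPM per kilobase in ISO and 7.89 in ALLO, and that of Vcan 12.7 and 5.87. The brain proteoglycans were close to the detection floor used here, 6 counts or 3 read pairs. Ncan had 22 and 12 counts in ISO and 0 and 8 in ALLO, and Bcan had 6 and 6 counts in ISO and 0 and 6 in ALLO. The link protein genes Hapln4 (2 and 12 counts in ISO and 12 and 38 in ALLO) and Hapln3 (8 and 6 counts in ISO and 8 and 1 in ALLO) were as sparse. The 10 glial and neuronal markers summed to 30.5 and 21.003 CPM in ISO and to 126 and 231 CPM in ALLO. Of the 8 tested, 5 rose (62.5%, beside 18.4% of all genes tested). Their count was 8 without ALLO_rep1 and 2 without ALLO_rep2, and Snap25, Nefl and Nefm were at 0 counts in both ISO libraries. Their part in these sparse genes was not tested.

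The hyaluronan receptor rose, while the synthase with the highest level per kilobase in ISO fell. Cd44 (ENSMUSG00000005087.17, chromosome 2, 102811141 to 102901665) had 76.0 and 91.7 CPM in the ISO libraries and 263 and 232 CPM in the ALLO libraries. The ALLO libraries stood clear of the ISO ones, 2.95-fold higher (log2 1.56 ± 0.21, adjusted p = 0.00786), and the means ± SD were 247 ± 21.7 against 83.8 ± 11.2 CPM. The leukocyte marker sum was higher in the same libraries, and leukocytes are known to carry CD44. The part of leukocytes in the Cd44 level was not tested. Has3, a synthase known for shorter hyaluronan chains, had 6.67 and 10.6 CPM in ISO and 2.11 and 1.59 CPM in ALLO. This 4.67-fold fall (log2 -2.22 ± 0.43, adjusted p = 0.0181, chromosome 8, 106870242 to 106884566) rested on 35 to 176 counts per library, and the call was lost at adjusted p = 0.0752 without ISO_rep2, 0.0533 without ALLO_rep1 and 0.0613 without ALLO_rep2.

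Has2, the synthase needed for heart development and known in injured arteries, had 0.702 and 1.15 CPM in ISO and 2.11 and 1.77 CPM in ALLO. The ALLO libraries were both higher, but the difference did not pass (log2 1.06 ± 0.58, adjusted p = 0.223, 12 to 41 counts per library). Has1 had 2.34 and 1.27 CPM in ISO and 1.85 and 2.18 CPM in ALLO, with the groups overlapping. In ISO grafts the mean level of Has3 was 1.35 CPM per kilobase, above 0.399 for Has1 and 0.218 for Has2. In ALLO grafts the same means were 0.290 for Has3, 0.446 for Has1 and 0.458 for Has2. Differences between synthases were not tested.

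Small leucine-rich proteoglycans were the most abundant family here, by level per kilobase. Of 10 tested members 3 fell (30%, beside 14.8% of all genes tested) and 7 did not pass. Osteoglycin, also called mimecan, is a secreted member known from bone and from vascular smooth muscle. Ogn (ENSMUSG00000021390.6, chromosome 13, 49608046 to 49624501) had 1322 and 1013 CPM in the ISO libraries and 179 and 48.7 CPM in the ALLO libraries. The ISO libraries were alike and the ALLO libraries 3.67-fold apart, all below ISO. The fall was 10.3-fold (log2 -3.36 ± 0.68, adjusted p = 0.0199), 23.4-fold without ALLO_rep1 and 6.50-fold without ALLO_rep2. Its neighbour Omd, for osteomodulin, a keratan sulphate proteoglycan of bone matrix, had 24.3 and 27.6 CPM in ISO and 5.19 and 1.04 CPM in ALLO (chromosome 13, 49582462 to 49592822). Omd thus fell 8.35-fold (log2 -3.06 ± 0.74, adjusted p = 0.0319), 24.1-fold without ALLO_rep1 and 4.97-fold without ALLO_rep2. Prelp, whose protein anchors basement membranes to collagen, had 804 and 973 CPM in ISO and 195 and 112 CPM in ALLO (chromosome 1, 133910304 to 133921414). It fell 5.79-fold (log2 -2.53 ± 0.36, adjusted p = 0.00833), with neither ALLO library near the ISO range. The smooth muscle marker sum was lower in the same ALLO libraries, and its part in these 3 falls was not tested. Of 10 cartilage markers, 4 could be tested and 3 of these (Col2a1, Col9a3 and Col11a1) were higher in ALLO (75%, beside 18.4% of all genes tested). The call for Col9a3 was lost with no filter, with a replicate block and when any 1 library was left out. Its log2 change stayed between 2.18 and 3.01 in all settings. Sox9, also tested, did not pass (log2 0.41 ± 0.59, adjusted p = 0.631). Col9a1 was not tested and went the other way, with 6 and 6 counts in ISO and 0 and 0 in ALLO. Matn1 and Ucma were at 0 counts in every library, and the marker sum was 3.80 and 3.26 CPM in ISO and 32.8 and 44.2 CPM in ALLO.

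Aspn, for asporin, lies directly before Omd and had 62.9 and 64.1 CPM in ISO and 59.0 and 36.5 CPM in ALLO. Its values in ISO and in ALLO_rep1 were close, though both ALLO values lay below both ISO values. No call was made (log2 -0.41 ± 0.27, adjusted p = 0.297), and the log2 change was -0.76 without ALLO_rep1 and -0.10 without ALLO_rep2. Ecm2, on the other side of Aspn by 11.7 kilobases and not a member, was looked at after its values had been seen. It had 282 and 341 CPM in ISO and 65.1 and 20.3 CPM in ALLO, a 7.30-fold fall (log2 -2.87 ± 0.58, adjusted p = 0.0205), 15.0-fold without ALLO_rep1 and 4.77-fold without ALLO_rep2. The set of neighbours around Prelp was also uneven. Prelp fell beside Fmod, 115.8 kilobases away, for fibromodulin, a collagen-binding protein, which had 313 and 185 CPM in ISO and 210.4 and 241 CPM in ALLO and did not pass (log2 -0.14 ± 0.31, adjusted p = 0.754, and a log2 change of 0.27 without ISO_rep1).

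On chromosome 10 lie Dcn, Lum, Kera and Epyc, each the next coding gene to the last, and the 3 tested (Dcn, Lum and Epyc) did not pass. Decorin, which binds collagen and the growth factor TGF-beta, had 1340.5 and 816 CPM in ISO and 2104 and 1001 CPM in ALLO. Dcn differed 2.10-fold between the ALLO libraries, more than between the group means (log2 0.53 ± 0.48, adjusted p = 0.448), and its log2 change was -0.07 without ALLO_rep1. Lumican, best known from the cornea, had 230.3 and 84.4 CPM in ISO and 355 and 219.9 CPM in ALLO, with ALLO_rep2 below ISO_rep1. Lum did not pass (log2 0.87 ± 0.53, adjusted p = 0.266), but without ISO_rep1 it was 3.37-fold higher at adjusted p = 0.0343. Kera, for keratocan of the cornea, had 4 and 0 counts in ISO and 0 and 0 in ALLO. Epyc, for epiphycan of cartilage, had 12 and 0 counts in ISO and 0 and 20 in ALLO, and 40.6% of its exonic bases are shared with a gene on the other strand, so its reads are uncertain.

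Biglycan, an abundant relative of decorin, had 5793 and 5689 CPM in ISO and 3078 and 4080.3 CPM in ALLO. Both ALLO values lay below both ISO values, yet edgeR gave no call (log2 -0.68 ± 0.39, adjusted p = 0.236), while DESeq2 gave adjusted p = 0.0212. Bgn is on the X chromosome, and its ISO libraries, of different sex-linked expression, differed by 1.02-fold. The part of sex in the Bgn level was not tested. Podn, for podocan, had 76.6 and 39.7 CPM in ISO and 56.2 and 64.7 CPM in ALLO, with the ALLO libraries inside the ISO range (log2 0.06 ± 0.34, adjusted p = 0.916).

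The make-up of the family differed between the ISO and ALLO libraries. Summed per kilobase of transcript over all 11 genes, the family had 2161 and 1876 CPM per kilobase in ISO and 1238 and 1084.5 in ALLO. Bgn made up 43.9% and 49.7% in ISO and 40.8% and 61.7% in ALLO. The share of Ogn was 23.8% and 21.04% in ISO and 5.62% and 1.75% in ALLO, and that of Prelp 10.3% and 14.4% in ISO and 4.36% and 2.85% in ALLO. Dcn made up 10.6% and 7.45% in ISO and 29.1% and 15.8% in ALLO, and Lum 4.35% and 1.84% in ISO and 11.7% and 8.28% in ALLO. Ogn thus went from the second place in both ISO libraries to the fourth in ALLO_rep1 and the sixth in ALLO_rep2, and Dcn stood second in both ALLO libraries. These shares describe 4 libraries and were not tested.

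**Figure D2:**
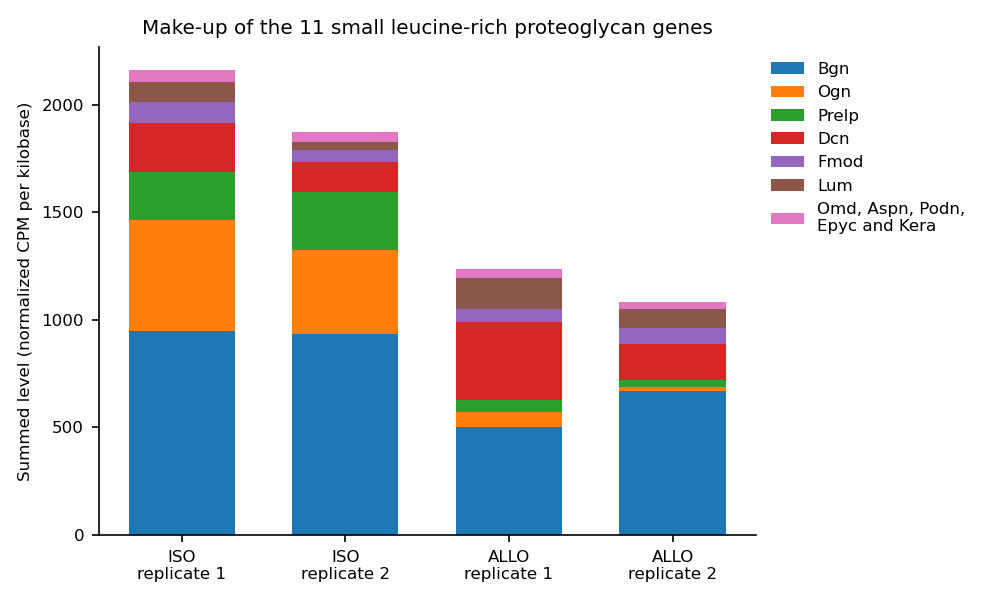
Summed level per kilobase of the 11 small leucine-rich proteoglycan genes in each library, stacked by gene. The bars reach 2161 and 1876 in ISO and 1238 and 1084.5 in ALLO, with the Ogn and Prelp layers thin in ALLO and Bgn the thickest layer in every library.

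Thrombospondins moved in both directions, with 3 of 5 higher and 1 lower (60% and 20%, beside 18.4% and 14.8% of all genes tested). Thbs1, an inhibitor of angiogenesis and activator of latent TGF-beta, had 256 and 242 CPM in the ISO libraries and 622 and 1396 CPM in the ALLO libraries. Both ALLO libraries were higher, though 2.24-fold apart, and the rise was 4.05-fold (log2 2.02 ± 0.44, adjusted p = 0.0242, ENSMUSG00000040152.8, chromosome 2, 118111876 to 118127133). Without ALLO_rep2 it was 2.51-fold at adjusted p = 0.0193. Thbs2, the other trimeric thrombospondin, made by fibroblasts and smooth muscle and known for its part in collagen fibril assembly, had 103 and 123 CPM in ISO and 352 and 432 CPM in ALLO. Here the replicates were close, and Thbs2 rose 3.48-fold (log2 1.80 ± 0.23, adjusted p = 0.00694, chromosome 17, 14665500 to 14694235), the smallest adjusted p of the members. Its upstream window is among those printed above. The leukocyte marker sum was also higher in the ALLO libraries, as was that of the 3 fibroblast collagen genes but not of the other 9 fibroblast markers. The part of either cell type in these rises was not tested.

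The pentameric thrombospondins, which lack the TGF-beta-activating repeats, were split. Thbs4, known from tendon and injured heart, rose from near that floor, with 10 and 4 counts in ISO and 90 and 129 in ALLO. In CPM the values were 0.585 and 0.241 CPM in ISO and 4.62 and 5.86 CPM in ALLO, a 12.5-fold rise (log2 3.64 ± 0.61, adjusted p = 0.0126, chromosome 13, 92751590 to 92794818), and 20.99-fold without ISO_rep1. Thbs3 had 80.3 and 79.2 CPM in ISO and 40.6 and 33.6 CPM in ALLO and fell 2.15-fold (log2 -1.11 ± 0.18, adjusted p = 0.0122, chromosome 3, 89215180 to 89226837). Its ISO libraries were nearly equal and its ALLO libraries both lower. Of its exonic bases, 6.59% are shared with another gene. Among the other members that passed, this share was 9.68% for Prelp, 5.52% for Has3, 3.42% for Thbs1 and 2.26% for Tnc. Comp, for cartilage oligomeric matrix protein, which smooth muscle also makes, had 65.02 and 63.8 CPM in ISO and 27.4 and 47.8 CPM in ALLO. Both ALLO libraries were lower, but Comp did not pass (log2 -0.78 ± 0.30, adjusted p = 0.106). Without ALLO_rep2 its fall passed at 2.34-fold and adjusted p = 0.0197. Per kilobase, Thbs1 stood highest of the 5 in both groups, at a mean of 41.0 CPM per kilobase in ISO and 166 in ALLO. Comp was the next in ISO, at 21.7, and Thbs2 the next in ALLO, at 56.0.

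Of the 3 large adhesive proteins, periostin and tenascin-C fell (66.7%, beside 14.8% of all genes tested) and fibronectin was not called. Postn encodes a collagen-binding protein of injured and mechanically loaded tissue, and had 2163 and 2482 CPM in the ISO libraries and 740.3 and 879.9 CPM in the ALLO libraries. The groups were far apart relative to the replicates, a 2.87-fold fall (log2 -1.52 ± 0.30, adjusted p = 0.0186, ENSMUSG00000027750.16, chromosome 3, 54361109 to 54391037). Tnc, for tenascin-C, which modulates adhesion in developing and wounded tissue, had 289 and 267 CPM in ISO and 116 and 148 CPM in ALLO and fell 2.10-fold (log2 -1.07 ± 0.22, adjusted p = 0.0213, chromosome 4, 63959785 to 64047015). Its call was lost at adjusted p = 0.104 without ISO_rep1 and 0.0854 without ISO_rep2, with log2 changes of -1.03 and -1.15. Fn1, for fibronectin, had 3858 and 3817 CPM in ISO and 3328 and 6527 CPM in ALLO. ALLO_rep1 lay below both ISO libraries and ALLO_rep2 above them (log2 0.36 ± 0.47, adjusted p = 0.595), and without ALLO_rep2 the log2 change was -0.20. The smooth muscle marker sum was lower in the libraries where Postn and Tnc fell, and its part in them was not tested. Counts per gene do not tell apart the splice forms by which fibronectin of plasma and of tissue differ.

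Testicans are secreted proteoglycans that share a calcium-binding module with SPARC, and only Spock2 was abundant enough to test. It had 48.9 and 33.8 CPM in ISO and 10.6 and 19.1 CPM in ALLO and fell 2.78-fold (log2 -1.48 ± 0.37, adjusted p = 0.0346, chromosome 10, 60106219 to 60135198). The call for Spock2 was lost at adjusted p = 0.0798 without ISO_rep1, 0.0767 without ALLO_rep1 and 0.0553 with scaling by library size alone. Spock1 and Spock3 were at 0 counts in both ISO libraries. In ALLO_rep1 and ALLO_rep2, Spock1 had 3 and 47 counts and Spock3 0 and 32, so nearly all their reads came from ALLO_rep2. With no filter on low counts Spock1 was called higher at adjusted p = 0.0463, and Spock3 was not, at 0.148. Neurons are known to express these genes, and the glial and neuronal marker sum was highest in ALLO_rep2. Its part in them was not tested. The sushi repeat proteins, among them SRPX2, a ligand of the urokinase receptor, did not pass. Srpx had 22.1 and 17.0 CPM in ISO and 32.3 and 16.1 CPM in ALLO, with the groups overlapping. Srpx2 had 23.7 and 21.2 CPM in ISO and 18.2 and 17.2 CPM in ALLO, both ALLO values below both ISO values (log2 -0.35 ± 0.22, adjusted p = 0.289).

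**Figure D3:**
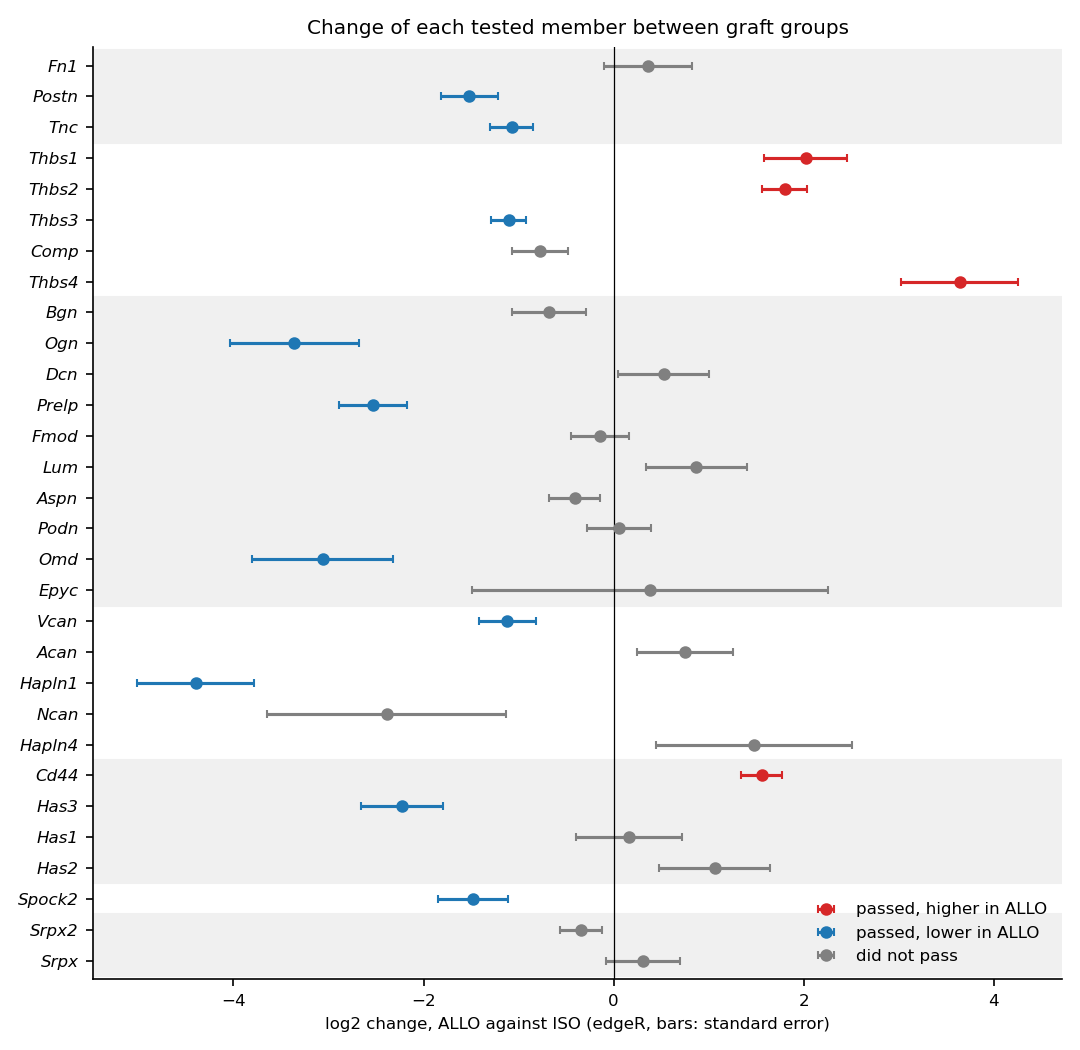
Log2 change of each tested member, ALLO against ISO, from edgeR (points, with bars of 1 standard error; red, passed and higher; blue, passed and lower; grey, did not pass), ordered by family as in the plot of levels. Thrombospondins appear on both sides of 0, and Hapln1 is the farthest to the left at -4.40.

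Replicates of these genes were spread more widely than those of genes at large. The median difference between replicates of the tested members was 0.45 on the log2 scale in ISO and 0.69 in ALLO, beside 0.27 and 0.37 over all genes tested. Of the 30, 4 were over 2-fold apart in ISO (Hapln4, Lum, Epyc and Thbs4). In ALLO 10 were (Acan, Ncan, Hapln1, Hapln4, Dcn, Ogn, Omd, Epyc, Thbs1 and Srpx). Ogn, Omd, Dcn and Srpx were higher in ALLO_rep1, and Acan and Thbs1 in ALLO_rep2. Leaving out single libraries changed no direction among the 14 that passed.

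**Figure D4:**
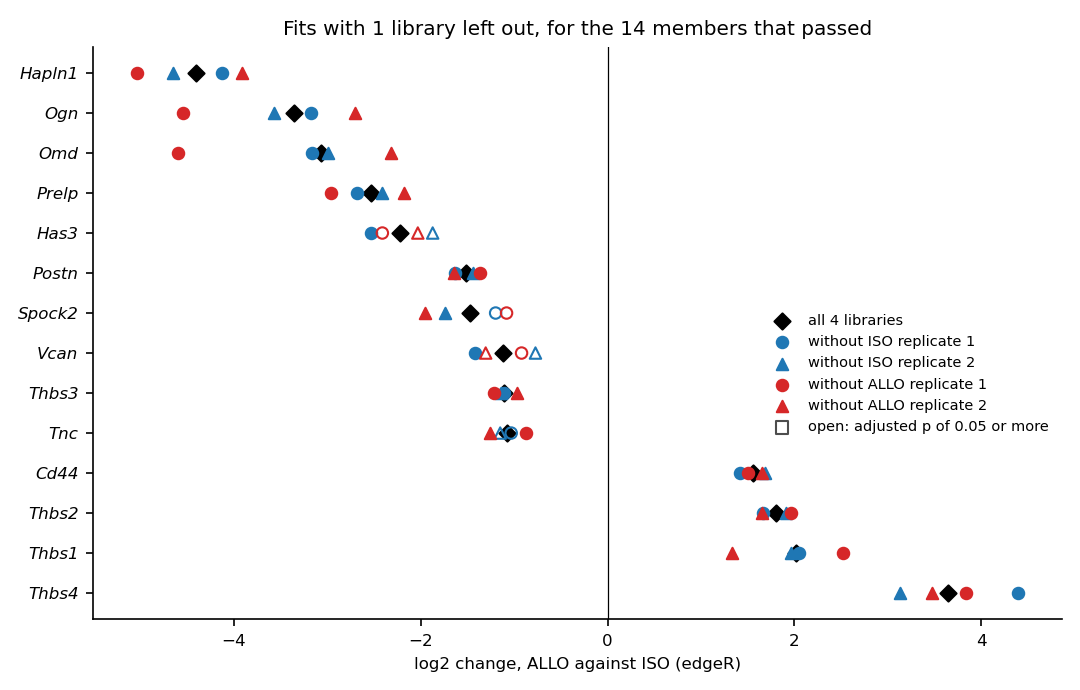
Log2 change of the 14 members that passed, fitted with all 4 libraries (diamonds) and with 1 left out (colour, group of the library left out; circle, replicate 1; triangle, replicate 2; open marks, adjusted p of 0.05 or more). All points of a gene lie on the same side of 0, with the widest ranges for Ogn and Omd.

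Of 41 tested genes that build, sulphate and trim the sugar chains, 7 rose (17.1%, beside 18.4% of all genes tested), 9 fell (21.95%, beside 14.8%) and 25 did not pass, with a median log2 change of -0.08. The count that rose was 4 without ISO_rep1 and 4 without ALLO_rep2, and the count that fell 5 without ISO_rep2 and 4 without ALLO_rep1. Chst3, which adds 6-O-sulphate to chondroitin, fell 8.42-fold (115 and 171 CPM in ISO and 19.8 and 14.3 CPM in ALLO, adjusted p = 0.00437). Chst15, which adds a further sulphate to already sulphated chondroitin, rose 2.87-fold (18.0 and 15.3 CPM in ISO and 50.1 and 45.6 CPM in ALLO, adjusted p = 0.00738). Ust, a uronyl sulphotransferase, fell (log2 -1.42 ± 0.19), as did Sulf1, an extracellular sulphatase of heparan sulphate (log2 -1.67 ± 0.29). Hs2st1, a heparan sulphate sulphotransferase, rose (log2 1.32 ± 0.17). Dse, the epimerase that turns chondroitin into dermatan sulphate, rose (log2 1.17 ± 0.21), but without ISO_rep1 its adjusted p was 0.0774 and without ISO_rep2 it was 0.0580.

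Of 15 tested genes that bind, cut or remodel hyaluronan, 6 rose and 6 fell (40% each, beside 18.4% and 14.8% of all genes tested), with a median of 0.08 on the log2 scale. The count that fell was 3 without ISO_rep2. Cemip, which promotes hyaluronan breakdown, had 2 and 2 counts in ISO and 364 and 482 in ALLO (adjusted p = 0.00216). Hyal1, a lysosomal hyaluronidase, had 51.7 and 65.8 CPM in ISO and 6.06 and 4.72 CPM in ALLO and fell 10.9-fold (adjusted p = 0.00319). The clearance receptor Stab2 had 2 and 0 counts in ISO and 338 and 189 in ALLO. Hmmr, a hyaluronan-binding protein that also serves the mitotic spindle, rose 20.7-fold, and 31.6-fold without ISO_rep1. Itih2 and Itih4, of the family whose heavy chains are passed on to hyaluronan, fell 15.7-fold and 12.9-fold. Among 7 proteases that cut large proteoglycans, 1 rose and 4 fell (14.3% and 57.1%, beside 18.4% and 14.8%), with a median of -1.37. Adamts4, an aggrecanase, had 2.46 and 2.90 CPM in ISO and 8.38 and 16.7 CPM in ALLO, and its call was lost at adjusted p = 0.0581 without ALLO_rep2. Adamts8, Adamts9 and Adamts15 fell, with log2 changes of -3.79, -1.65 and -1.37. Adamts8 fell 8.28-fold without ALLO_rep1 and 38.8-fold without ALLO_rep2, against 13.9-fold with all libraries. The call for Adamts15 was lost at adjusted p = 0.0547 without ALLO_rep1.

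Heparan sulphate and other proteoglycans outside the 35 gave 5 higher and 8 lower of 23 tested (21.7% and 34.8%, beside 18.4% and 14.8% of all genes), with a median log2 change of -0.94. The syndecans, transmembrane heparan sulphate carriers, were divided. Sdc3 rose 6.14-fold (91.3 and 47.7 CPM in ISO and 353 and 500.4 CPM in ALLO), Sdc1 rose 3.67-fold, and Sdc4 fell 2.60-fold. Ptprz1, a receptor phosphatase that is also a chondroitin sulphate proteoglycan, fell 82.9-fold (313 and 234 CPM in ISO and 3.13 and 3.45 CPM in ALLO). Optc, for opticin, 2.3 kilobases from Prelp, had 812 and 2084 counts in ISO and 15 and 4 in ALLO, and its log2 change of -7.52 became -8.82 without ALLO_rep1, -6.80 without ALLO_rep2 and -6.67 without ISO_rep2. Prg2, for the eosinophil granule major basic protein, had 0 and 2 counts in ISO and 98 and 102 in ALLO.

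Other matricellular proteins gave 5 higher and 10 lower of 27 tested (18.5% and 37.0%, beside the same 18.4% and 14.8%), with a median of -0.77, and 3 higher without ISO_rep2 or without ALLO_rep2. Lgals3, for galectin-3, abundant in macrophages, rose 16.1-fold (31.3 and 19.9 CPM in ISO and 347 and 476 CPM in ALLO), in the libraries where the leukocyte marker sum was higher. Ccn4 rose 7.003-fold, while its relative Ccn3 fell 11.02-fold (1593 and 791 CPM in ISO and 120.0 and 96.2 CPM in ALLO). Sparcl1 and Smoc1, which share the calcium-binding module of SPARC, fell 2.92-fold and 12.3-fold. Edil3, an integrin ligand, had 2 and 1 counts in ISO and 40 and 88 in ALLO, and its call was lost at adjusted p = 0.0522 without ALLO_rep2. Of 10 receptors of matricellular proteins, 2 rose and 6 fell (20% and 60%, beside 18.4% and 14.8%), with a median of -1.61. Cd47, a thrombospondin receptor, rose 2.34-fold, but its adjusted p was 0.0621 without ISO_rep1 and 0.136 without ISO_rep2. Itga4, a leukocyte integrin subunit that binds fibronectin, rose 12.9-fold, and 8.53-fold without ALLO_rep1. Itga8, an integrin subunit of smooth muscle, had 3357 and 4038 CPM in ISO and 76.7 and 109 CPM in ALLO and fell 39.8-fold (log2 -5.32 ± 0.41, adjusted p = 0.00319), a call made in all 14 other settings. Itgb3, which pairs with the alpha-V subunit, fell 4.07-fold. Itga9, whose ligands include tenascin-C, fell 10.5-fold. The smooth muscle marker sum was lower alongside, and its part in these falls was not tested.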

How the data were processed

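RNA of 4 aortic graft libraries was sequenced after ribosomal RNA removal, per the labels' protocols. The values that the authors deposited are raw counts of reads by gene, in the layout of featureCounts. The submitters' processing notes name mm10 as the build and list R 4.0.3, DESeq2 1.30.0, featureCounts and Subread 1.6.4 as tools. Aligner, annotation release and strand setting are not stated there, so overlapping genes are uncertain, and 25 of the 35 members share no exonic base with another gene. Low counts were mostly even (68.0% to 74.6% of counts from 1 to 20), as when both mates of a pair are counted. Counts can therefore overstate the number of read pairs, and PCR copies were not marked.

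Symbols were joined to the Ensembl IDs through a GENCODE M21 name table (54723 of 54752 matched without version). Genes passing filterByExpr (minimum count 10) were scaled by TMM and fitted with edgeR 4.0.16 (glmQLFit, glmQLFTest, group as the only term, common biological coefficient of variation 0.324), and genes with a Benjamini-Hochberg adjusted p below 0.05 were called. Standard errors (SE) are those of the log2 change, worked back as its size over the square root of the F statistic of the quasi-likelihood test. Replicates differed beyond sampling noise (chi-square over degrees of freedom 41.6 in ISO and 139 in ALLO). Levels per kilobase used the deposited gene lengths. The code was tested on simulated data.

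All 35 members are named, with up to 3 genes of smallest adjusted p in each direction from each companion list, while marker lists are given as counts and sums. Members and lists were chosen with earlier results of these data known. The 14 other settings were different scalings and filters, DESeq2 1.42.0, limma-voom (limma 3.58.1), a replicate block, halved counts, removal of sets of genes and each library left out. Promoter windows came from RefSeq. R 4.3.3, Python 3.11.15, pandas 2.3.3 and matplotlib 3.10.9 were used.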

Additional observations from a re-analysis of the deposited data

How the results depend on the processing

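The counts of 4 higher and 10 lower members stayed within 1.5 times under every setting tried, and no member among the 14 changed direction. The lower count was 8 with scaling by library size alone, a setting that moves the median of all genes by 0.19. It was 11 with DESeq2 and 10 with a replicate block, which left the higher count at 4. Of all 16498 genes tested, 1867, 2945 and 2107 were lower in these fits, in that order, beside 2437 in the main fit. With single libraries left out, fewer members were called lower, and fewer of all genes tested were as well. The libraries share only a number (correlation of same-numbered deviations 0.097), and the block is given for completeness. With no filter 5 were higher, the addition being Spock1. The median log2 change of the members, -0.24, is not stable. It was -0.050 with library size alone, -0.37 with no filter (35 members tested), -0.34 with halved counts and -0.14 without X and Y genes (27 members tested in each). With single libraries left out it ran from -0.43 (without ISO replicate 2) to 0.31 (without ISO replicate 1), with 32 members tested in each instead of 30. Fits that leave 1 library in a group assume that it varies like the other group. The causes were not tested. Depth limits Bcan, Ncan, Hapln3, Hapln4, Kera, Epyc, Spock1, Spock3 and the hyaluronan synthases, which had few counts.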
